A study of Mus musculus with 32 samples.

Results

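The data described here are the RNA sequencing of induced neurons (iNs) that lack the maternal copy of the Mirg microRNA cluster, 3 libraries, set against control iNs, 3 libraries. They are 6 of the 32 samples of the series and 6 of its 12 rRNA-depleted RNA libraries. The deletion iNs were of genotype Mirg(Delta/+), with the maternal miR-379/miR-410 cluster deleted, and the control iNs were Mirg(fl/+), with the cluster present. Both groups came from hybrid mouse embryonic stem cells (ESCs) that carry TetO-Ngn2, a transgene of the neurogenic factor Ngn2 (gene Neurog2) switched on by doxycycline. Both were collected on day 10 of differentiation. All genes were members: of 52636 gene entries in the files, 27519 had a count in the 6 libraries and 16028 passed the filter on low counts and were tested. The labels do not say that the replicates A, B and C were separate cultures, so each p-value reflects library-to-library spread alone, which may be technical. How many lines or clones each genotype stands for is not given in the sources used here. Effects of the deletion therefore cannot be told apart from those of the line, its culture or its transgene.

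The miR-379/miR-410 cluster is a long run of microRNA genes in the imprinted Dlk1-Dio3 domain of mouse chromosome 12. It is transcribed from the maternal chromosome, with the noncoding RNAs Meg3, Rian and Mirg, and is known above all from the brain. A microRNA is loaded into an Argonaute protein such as Ago2, pairs through its seed (bases 2 to 8) with messenger RNAs, and lowers their stability or translation. In bulk RNA, fewer cells of a type and less RNA per cell cannot be told apart.

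The sequences of 7 cluster microRNAs are shown because their predicted Ago2 sites are counted in the last part of the results. They are mature sequences from RefSeq, written 5′ to 3′ with the seed in capitals. Their genes lie on the plus strand of the span from Mir379 to Mir410, chr12:109709060-109743795 of GRCm38.p6, and miR-379-5p itself lies at chr12:109709065-109709085. No 2 of these microRNAs share a seed. miR-543-3p and miR-495-3p have nearly the same 3′ part and different seeds.
miR-379-5p: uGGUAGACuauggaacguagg
miR-666-3p: gGCUGCAGcgugaucgccugcu
miR-543-3p: aAACAUUCgcggugcacuucuu
miR-495-3p: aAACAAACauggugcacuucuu
miR-376b-3p: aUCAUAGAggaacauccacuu
miR-381-3p: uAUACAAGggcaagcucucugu
miR-134-5p: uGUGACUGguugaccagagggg

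The deletion iN libraries held 19000071, 18613767 and 19030092 counts and the control iN libraries 14904735, 20965472 and 17073837. Mitochondrial genes took 3.07 ± 0.58% of the counts in deletion iNs and 3.81 ± 0.50% in control iNs (mean ± SD, n = 3 each, exact two-sided permutation p = 0.2, where 0.1 is the smallest that 3 against 3 allows). The first principal component held 52.3% of the variance and separated the genotypes, and the second held 15.1% and set control library A (−26.6) apart from B (19.1) and C (12.4). Pan-neuronal genes marked both groups as neurons, with Map2, a dendritic microtubule protein, at 854, 841 and 868 CPM (counts scaled to the library total after TMM, edgeR's correction for composition) in deletion iNs and 747, 755 and 746 CPM in control iNs. The RNA of Gad1, Gad2 and Slc32a1, the markers of GABA release, was at most 0.431 CPM in any of the 6 libraries, and these genes were too low to test. Stem cell, progenitor and other markers were present at lower sums than pan-neuronal genes. The 24 pan-neuronal genes summed to 16310 to 16680 CPM in deletion iNs and 15510 to 16020 CPM in control iNs. Of the other markers, the sums for dividing cells overlapped between the genotypes. The summed level of 24 pluripotency markers was 165 to 176 CPM in deletion iNs and 221 to 242 CPM in control iNs, that of 20 markers of dividing cells 69.4 to 71.2 CPM in deletion iNs and 69.1 to 76.2 CPM in control iNs, and that of 12 neural progenitor markers 497 to 518 CPM in deletion iNs and 634 to 680 CPM in control iNs. The summed level of 16 glial markers was 153 to 157 CPM in deletion iNs and 119 to 126 CPM in control iNs, with Gfap and Sox10 at 0 in all 6 libraries. The sum for 16 fibroblast and feeder markers was 99.8 to 113 CPM in deletion iNs and 77.3 to 88.5 CPM in control iNs, with Lum and S100a4 at 0. Markers of endoderm and mesoderm summed to 13.4 to 14.2 CPM in deletion iNs and 8.40 to 9.16 CPM in control iNs, and those of epithelium to 10.5 to 12.1 CPM in deletion iNs and 3.14 to 5.40 CPM in control iNs. Of the markers tested, 2 rose and 7 fell of 14 for pluripotency, 1 and 1 of 18 for division, 2 and 1 of 7 for progenitors, 3 and 1 of 7 for glia, 3 and 0 of 7 for fibroblasts, 1 and 1 of 6 for endoderm and mesoderm, and 3 and 0 of 5 for epithelium. With 1 library left out, the fall of the endoderm and mesoderm list was lost whichever library it was, that of the division list without deletion or control B, and that of the glial list without deletion A or B or control A or C. The rises of the pluripotency list became 1 without deletion C or control B, and those of epithelium 5 without control A or B. Their part in the changes described next was not tested.

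In deletion iNs 1981 genes rose and 2128 fell at an adjusted p under 0.05 (edgeR quasi-likelihood test, Benjamini-Hochberg adjustment over all 16028 genes). These are 12.4% and 13.3% of the genes tested, the background against which each list is read. Most changes were small: 68.8% of the 4109 genes that passed changed by less than 1.5-fold, the median change being 1.32-fold, while 276 rose and 238 fell at least 2-fold. The 3 deletion and 3 control values did not overlap for 40.9% of the genes tested. Scaling to the library total without TMM moved the median of all genes by 0.034 log2 units and gave 2362 genes that rose and 1718 that fell, so that 57.9% of the calls were rises, against 48.2% with TMM. The median log2 fold change of all genes tested was 0.004, and by chromosome the medians ran from −0.051 on X to 0.038 on chromosome 7 among the autosomes and X. In the authors' deposited table for this comparison 3685 of the 13553 genes shared with the present test were called, and 3375 were called in both, all of them in the same direction.

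**Figure D1:**
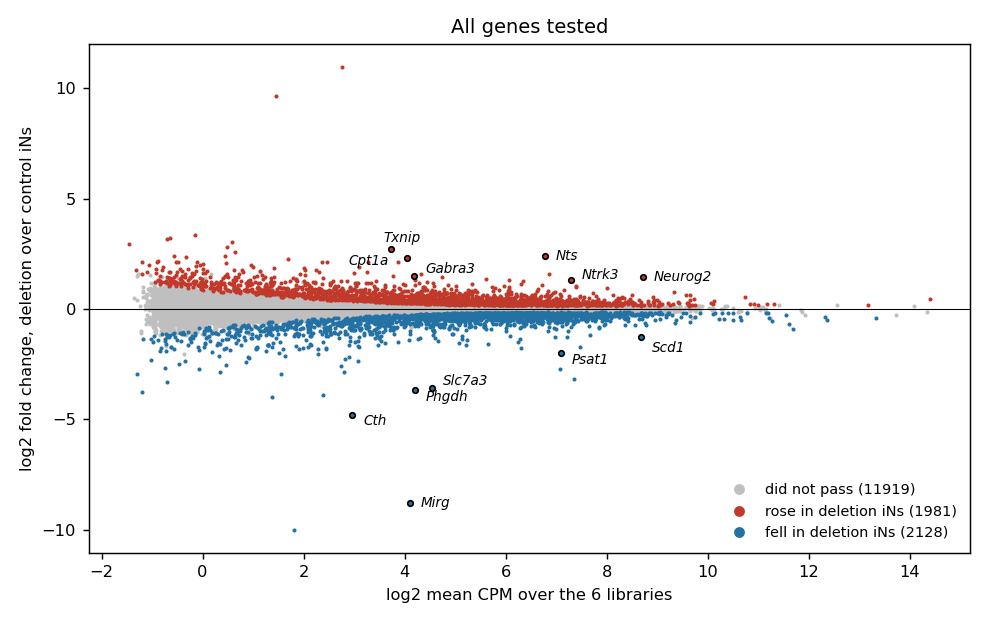
Log2 fold change of deletion over control iNs (vertical axis) against the log2 mean CPM over the 6 libraries (horizontal axis) for the 16028 genes tested, 1 point per gene, coloured by whether the gene rose (1981), fell (2128) or did not pass. Named genes are circled; falls such as Cth, Phgdh and Slc7a3 lie further from 0 than the rises of Txnip, Nts and Cpt1a.

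The deleted locus was lost from the RNA, and an entry beyond its far end had counts in deletion iNs and none in control iNs. Mirg, the host transcript of the cluster (chr12:109734981-109749458), had 0.103, 0 and 0.104 CPM in deletion iNs and 31.1, 33 and 38.3 CPM in control iNs (log2 fold change of deletion over control −8.80 ± 0.24 SE, as all such pairs below, edgeR adjusted p = 8.96e-12). Gm9661, annotated by RefSeq as a pseudogene at chr12:109826969-109828149, starts 77.5 kb beyond the end of Mirg and was singled out after its values were seen. It had 265, 260 and 249 counts in the deletion iN libraries and 0 in each of the 3 control iN libraries. Against a floor of 3 counts in each control library it was at least 76.9-fold higher in deletion iNs (edgeR adjusted p = 1e-09), and the call held in every alternative run. The floor covers counting error only. In ESCs the same entry had 35, 32 and 33 counts in the deletion libraries and 3, 0 and 1 in the control libraries (edgeR adjusted p = 0.00259), so the direction was the same in both cell types. The same all-or-none pattern, also singled out after values were seen, was found in a pair of entries on other chromosomes. Gm10243 on chromosome 6 had 153, 122 and 37 counts in deletion iNs and 0 in each control library, and Gm10335 on chromosome 10 had 0 in each deletion library and 115, 161 and 89 counts in control iNs. In ESCs Gm10243 had 0, 559 and 0 counts in the deletion libraries and 298, 323 and 243 in the control libraries. Gm10335 had 367, 287 and 299 counts in deletion ESCs and 416, 573 and 233 in control ESCs. With RSEM's posterior mean counts Gm10243 lost its call (0.47, edgeR adjusted p = 0.162) and Gm10335 had a log2 fold change of −1.94. The call of Gm10243 was also lost with all 12 libraries (edgeR adjusted p = 0.0795). The counts of a pseudogene can include reads of a near-identical copy elsewhere, which these files do not resolve.

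The neighbours of the cluster on either side did not share that pattern. Gm3379, the next entry with counts, 144.9 kb beyond Mirg, had 0, 2 and 0 counts in deletion iNs and 0, 3 and 0 in control iNs. Dio3, a thyroid hormone deiodinase at the far end of the domain and 529.8 kb from Mirg, had 28.5, 27.8 and 24.9 CPM in deletion iNs and 23.1, 28 and 24.9 CPM in control iNs (0.09 ± 0.09, edgeR adjusted p = 0.495), and Dio3os, its antisense neighbour, had a log2 fold change of 0.04. On the near side Meg3 had 1879, 2154 and 2114 CPM in deletion iNs and 1194, 1244 and 1722 CPM in control iNs (0.56 ± 0.10, edgeR adjusted p = 0.00106), and Rian had 1105, 1261 and 1166 CPM in deletion iNs and 990, 912 and 1028 CPM in control iNs (0.27 ± 0.06). In ESCs both fell, Meg3 by 0.38 ± 0.05 (edgeR adjusted p = 0.0092) and Rian by 0.38 ± 0.07 (edgeR adjusted p = 0.0356), opposite to iNs, and the interaction passed for both (0.92 for Meg3 and 0.64 for Rian). Dlk1, the paternally expressed Notch-like protein that opens the domain, had 4.79, 3.77 and 4.62 CPM in deletion iNs and 11.1, 9.54 and 11.5 CPM in control iNs, a fall by 1.28 ± 0.14 with no overlap. B830012L14Rik rose (0.85) and Wars, a tRNA synthetase gene near the domain, fell (−0.42), while Begain (0.28), Wdr25 (−0.06), Ppp2r5c (−0.05) and Dync1h1 (−0.04) did not pass. Of the 12 genes listed for the domain and its flanks 11 were tested, 3 rose and 3 fell. Rtl1 was too low to test, at 0.377 to 0.571 CPM in deletion iNs and 0.177 to 0.434 CPM in control iNs.

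A large group of falls was in amino acid metabolism. ATF4 is the transcription factor of the integrated stress response: when amino acids run short or proteins misfold, phosphorylation of eIF2α favours its translation, and it switches on enzymes of serine, cysteine and asparagine synthesis, amino acid transporters and aminoacyl-tRNA synthetases. Of 31 genes listed as ATF4 targets or partners, 26 were tested, 23 fell and none rose, with a median log2 fold change of −0.83 (all genes tested: 13.3% fell, median 0.004). The summed level of the list was 990 to 993 CPM in deletion iNs and 1636 to 1921 CPM in control iNs. Some genes stand on this list and on the lists of enzymes or transporters described next, so the lists are not separate counts.

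Within serine and folate metabolism falls were found from the first enzyme onwards. Phgdh, which takes glycolytic 3-phosphoglycerate into serine synthesis, had 2.42, 2.59 and 3.01 CPM in deletion iNs and 39.5, 35.3 and 27.4 CPM in control iNs, 12.7-fold lower (−3.67 ± 0.15, edgeR adjusted p = 9.19e-10). Psat1, the next enzyme, had 55.7, 52.8 and 56.5 CPM in deletion iNs and 242, 231 and 179 CPM in control iNs (−1.98 ± 0.09). The groups were far apart for both genes, with control library C the lowest of the controls. Psph, which completes serine, fell by 0.78 ± 0.11. The mitochondrial folate enzymes fell too: Shmt2, which splits serine to glycine, had 11.2, 11.3 and 11.5 CPM in deletion iNs and 26.9, 22.1 and 19.9 CPM in control iNs (−1.01 ± 0.11), Mthfd2 fell by 1.46 ± 0.11, Mthfd1l by 0.57 ± 0.10 and Aldh1l2, which oxidises formyl-folate, fell too (−1.79 ± 0.07). The glycine decarboxylase Gldc fell by 0.75 ± 0.16. In all, 10 of 21 serine and folate enzymes fell, none rose, and the median was −0.25.

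Cysteine, asparagine and proline synthesis moved the same way. Cth, which makes cysteine from cystathionine, had 0.412, 0.755 and 0.415 CPM in deletion iNs and 21.3, 14.4 and 9.47 CPM in control iNs, 28.2-fold lower (−4.82 ± 0.33, edgeR adjusted p = 1.02e-07). Its control values spread over a wider range than those of most genes, from C at the low end to A at the high end. Chac1, which degrades glutathione, had 2.16, 3.88 and 2.18 CPM in deletion iNs and 16.8, 14.4 and 11.1 CPM in control iNs (−2.36 ± 0.20). Asns, the asparagine synthetase, had 164, 161 and 160 CPM in deletion iNs and 325, 311 and 258 CPM in control iNs (−0.88 ± 0.07), and the 3 deletion values were closer together than the control values. Pycr1 (−1.65 ± 0.14) and Aldh18a1 (−0.55 ± 0.06) of proline synthesis fell, as did the transaminases Bcat1 (−1.26 ± 0.07), Gpt2 (−0.56 ± 0.09) and Got1 (−0.51 ± 0.06). On this list 11 of 22 fell and 1 rose, the rise being lost under the replicate block, with all 12 libraries, and without any 1 library except control A.

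Transporters of amino acids changed in both directions. Slc7a3, which carries arginine and lysine, had 3.09, 3.99 and 3.79 CPM in deletion iNs and 49.1, 46.5 and 33.8 CPM in control iNs, 11.9-fold lower (−3.57 ± 0.15, edgeR adjusted p = 9.19e-10). Slc7a5 had 127, 122 and 126 CPM in deletion iNs and 303, 289 and 251 CPM in control iNs (−1.17 ± 0.07), and Slc3a2, its partner in the leucine exchanger, had 90.6, 84.5 and 87.6 CPM in deletion iNs and 168, 170 and 147 CPM in control iNs (−0.88 ± 0.06). Neither gene's groups overlapped. The glutamine carrier Slc1a5 fell by 1.65 ± 0.13, the glycine carrier Slc6a9 by 1.45 ± 0.13 and the cystine carrier Slc7a11 fell as well (−2.5 ± 0.42), the last at 0.154 to 0.259 CPM in deletion iNs and 0.769 to 1.45 CPM in control iNs. Of 28 transporters tested 10 fell and 5 rose, with a median of 0.03. Slc7a7 rose by 0.55 ± 0.13, and Slc3a1 rose by 1.00 ± 0.31 at about 1 CPM, a call that was lost in 7 alternatives.

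**Figure D2:**
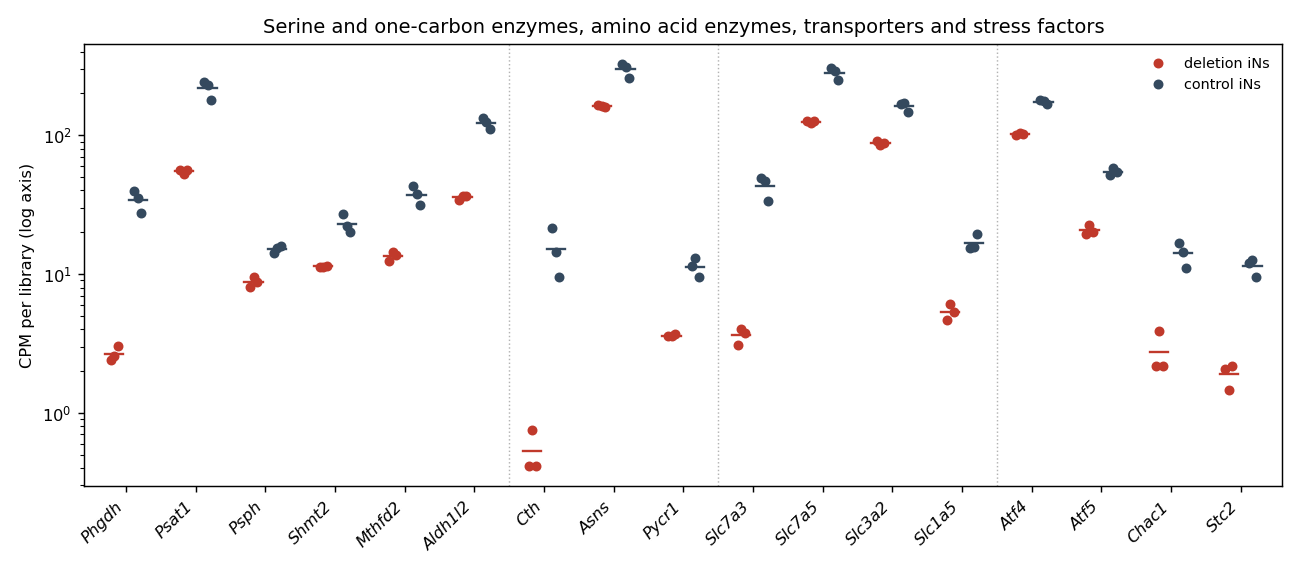
CPM per library on a log axis for serine and folate enzymes, other amino acid enzymes, transporters, and stress factors with Chac1 and Stc2 (separated by dotted lines), with 3 deletion iN libraries (red, left) and 3 control iN libraries (dark, right) per gene and a bar at each mean. The 2 groups do not overlap for any gene shown; Cth lies at 0.412 to 0.755 CPM in deletion iNs and at 9.47 to 21.3 CPM in control iNs.

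The cytosolic aminoacyl-tRNA synthetases, which charge tRNAs with amino acids for translation, fell in 15 of 20 with none rising (median −0.365). Cars, for cysteine, had 46.8, 47 and 42.5 CPM in deletion iNs and 85.6, 86.6 and 76.3 CPM in control iNs (−0.87 ± 0.07), and Tars, for threonine, had 44.1, 37.9 and 42.7 CPM in deletion iNs and 69.6, 68.2 and 60.5 CPM in control iNs (−0.67 ± 0.07). The others named by the rule fell by 0.42 to 0.48: Iars (−0.48), Nars (−0.48), Gars (−0.47), Lars (−0.47), Yars (−0.44) and Wars (−0.42). Of 17 mitochondrial synthetases 1 fell and none rose (median 0.046). Without control library C 2 fell and 1 rose, without deletion C 1 rose, and with library totals 2 rose. The gene that fell, Lars2, had 35.1, 37.8 and 34.8 CPM in deletion iNs and 238, 366 and 94.5 CPM in control iNs (−2.70 ± 0.32), and the mitochondrial ribosomal RNA mt-Rnr2 had 20.2, 57.9 and 20.6 CPM in deletion iNs and 409, 382 and 90.4 CPM in control iNs (−3.16 ± 0.46, or −3.84 without deletion library B). For these 2 genes control library C stood nearer to the deletion libraries than A and B did. The libraries were rRNA-depleted, and the part of depletion in the values of these 2 genes was not tested.

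The factors of the pathway itself were lower. Atf4 had 101, 103 and 102 CPM in deletion iNs and 180, 177 and 168 CPM in control iNs (−0.78 ± 0.05, edgeR adjusted p = 9.65e-08), a narrow spread within each group and no overlap. Atf5, a related factor, had 19.3, 22.6 and 20.1 CPM in deletion iNs and 51.8, 57.7 and 54 CPM in control iNs (−1.40 ± 0.07). The secreted Stc2 fell by 2.58 ± 0.18 and so did the translation repressor Eif4ebp1 (−1.24 ± 0.12). The 3 members tested that did not pass were Atf3 (−0.26, edgeR adjusted p = 0.382), Ddit4 (−0.12) and Ppp1r15a (−0.07), the phosphatase subunit that ends the response. Other stress lists were counted beside it. Among 23 chaperones and factors of the endoplasmic reticulum 4 rose and 1 fell (median 0.006), with the chaperone Hspa5 at 366, 332 and 353 CPM in deletion iNs and 346, 366 and 366 CPM in control iNs. The 4 rises became 2 in 8 alternatives, among them without each library except deletion B. Of 15 heat shock proteins 1 fell and none rose. That count of falls was 0 without deletion library A, 2 without any 1 of the control libraries and 4 with DESeq2's Wald test, and 1 rose without deletion B or control B or with library totals. Of 15 NRF2 targets 6 fell and none rose (median −0.177), with Slc7a11 and Hmox1 (−0.79) the furthest from 0.

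**Figure D3:**
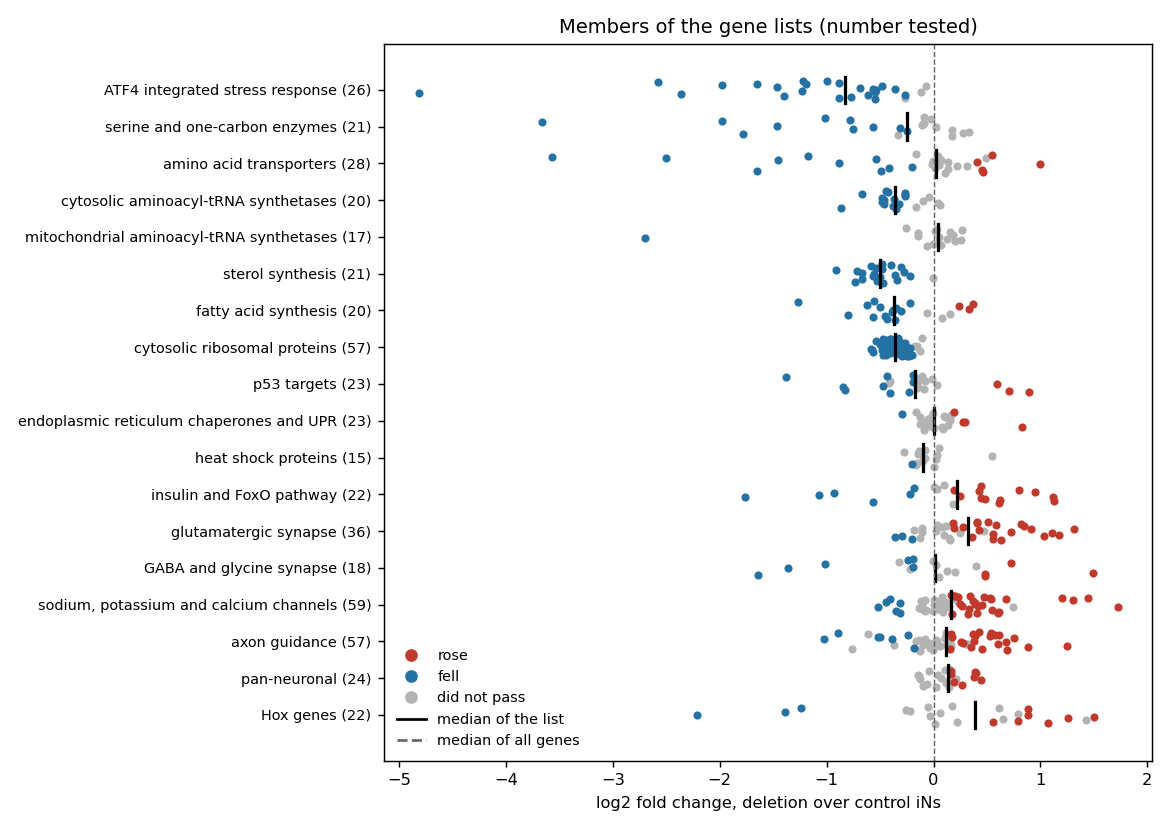
Log2 fold change of deletion over control iNs (horizontal axis) for every tested member of 18 lists (rows, number tested in brackets), coloured by call, with the list's median (black bar) and the median of all genes (dashed line). The ATF4, cytosolic tRNA synthetase, sterol synthesis and ribosomal protein rows lie mostly left of the dashed line, with medians of −0.83, −0.365, −0.505 and −0.363; the mitochondrial synthetase and endoplasmic reticulum rows centre on it.

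Promoters are shown for 4 genes of this group that fell, because they hold the C/EBP-ATF element, the composite site through which ATF4 is known to act. The element was searched as TGATGNAA on both strands of the 300 bases from 250 before to 50 after each gene's start in RefSeq GRCm38.p6, and no other motif was searched. Chac1 lies on the plus strand at chr2:119350992-119351291, Asns on the minus strand at chr6:7693160-7693459, Pycr1 on the minus strand at chr11:120643699-120643998 and Iars on the plus strand at chr13:49681880-49682179. Each sequence is written 5′ to 3′ on the gene's strand, with the match in capitals.
Chac1: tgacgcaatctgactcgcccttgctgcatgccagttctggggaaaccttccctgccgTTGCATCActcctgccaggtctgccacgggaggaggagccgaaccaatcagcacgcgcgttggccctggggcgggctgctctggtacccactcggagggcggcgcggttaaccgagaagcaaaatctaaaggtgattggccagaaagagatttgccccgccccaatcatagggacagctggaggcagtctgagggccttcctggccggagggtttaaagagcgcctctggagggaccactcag
Asns: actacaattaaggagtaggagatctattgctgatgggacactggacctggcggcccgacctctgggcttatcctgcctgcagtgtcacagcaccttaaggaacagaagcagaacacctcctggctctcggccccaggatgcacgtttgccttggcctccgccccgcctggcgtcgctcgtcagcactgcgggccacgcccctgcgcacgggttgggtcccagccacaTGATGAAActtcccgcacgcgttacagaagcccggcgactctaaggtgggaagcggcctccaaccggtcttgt
Pycr1: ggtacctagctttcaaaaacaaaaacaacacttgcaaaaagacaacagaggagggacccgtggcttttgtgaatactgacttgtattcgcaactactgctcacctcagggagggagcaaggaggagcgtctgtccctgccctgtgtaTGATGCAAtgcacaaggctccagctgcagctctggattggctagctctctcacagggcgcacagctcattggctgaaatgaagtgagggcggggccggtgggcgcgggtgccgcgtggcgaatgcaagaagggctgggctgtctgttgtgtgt
Iars: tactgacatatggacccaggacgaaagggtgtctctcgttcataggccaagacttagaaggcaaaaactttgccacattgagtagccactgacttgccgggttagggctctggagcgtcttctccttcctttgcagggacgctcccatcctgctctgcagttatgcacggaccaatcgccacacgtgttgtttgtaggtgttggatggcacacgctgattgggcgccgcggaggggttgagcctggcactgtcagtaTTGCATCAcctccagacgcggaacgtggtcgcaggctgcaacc

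The element was present in 4.51% of 27025 RefSeq promoters and in 2.66% of the 10583 genes tested that had a promoter sequence. It was in 3.18% of the genes that rose and 3.51% of those that fell, and, at 2-fold or more, in 6 of 153 that rose (3.92%) and 9 of 145 that fell (6.21%). On the ATF4 list 10 of 27 promoters held it (37%): those of Trib3, Chac1, Asns, Vldlr, Herpud1, Jdp2 and Pycr1, which fell, of Atf3, which did not pass, and of Nupr1 and Fgf21, which were too low to test. Among cytosolic synthetases 5 of 12 promoters held it, those of Aars, Gars, Iars, Tars and Yars, all of which fell, and among mitochondrial synthetases 0 of 14. It was in 0 of 18 promoters of serine and folate enzymes and in 3 of 25 of transporters. A match describes the letters of this window and not a site in use, and genes were put on the ATF4 list in part because they are known to carry such elements.

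Lipid synthesis was the other metabolic group that fell. Sterol and fatty acid synthesis genes are switched on together by the SREBP factors when membrane sterol is low. Of 21 sterol synthesis genes 20 fell (median −0.505), the exception being Fdft1, the squalene synthase, at 293, 294 and 294 CPM in deletion iNs and 271, 315 and 299 CPM in control iNs. Mvd, which makes isopentenyl diphosphate, had 90.3, 87.7 and 88.7 CPM in deletion iNs and 149, 178 and 173 CPM in control iNs (−0.91 ± 0.07). Cyp51 (−0.73), Msmo1 (−0.72), Ebp (−0.67), Idi1 (−0.67), Sc5d (−0.58) and Hsd17b7 (−0.56) fell without overlap.

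Fatty acid synthesis genes fell in 14 of 20 and rose in 3 (median −0.368). Scd1, which puts the first double bond into stearate, had 250, 230 and 240 CPM in deletion iNs and 494, 563 and 678 CPM in control iNs (−1.27 ± 0.09, edgeR adjusted p = 9.65e-08). Scd2, its neuronal relative, had 2076, 1970 and 1966 CPM in deletion iNs and 2716, 2964 and 3175 CPM in control iNs (−0.56 ± 0.06). For both desaturases control library C was the highest control, whereas it was the lowest for Cth, Phgdh and Slc7a3. Fasn (−0.62), Acss2 (−0.80), Acsl3 (−0.56), Fads2 (−0.50), Acsl4 (−0.46) and Acly (−0.43) also fell. Of 16 genes of sterol uptake, export and sensing 7 fell and 2 rose: the carrier Stard4 (−0.99), the sensor Insig1 (−0.67), Npc2 (−0.67) and Lpcat3 (−0.67) fell, and the exporters Abca1 (1.2 ± 0.18) and Abcg1 (0.42 ± 0.07) rose. The factors were less changed, with Srebf2 at −0.16 ± 0.05 and Srebf1 at −0.26 ± 0.09, a call that was lost in 7 alternatives.

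Genes that admit and burn fuel changed singly. Cpt1a, which passes fatty acids into mitochondria for oxidation, had 29.2, 25 and 27.9 CPM in deletion iNs and 5.12, 5.01 and 6.27 CPM in control iNs, 5-fold higher (2.32 ± 0.11, edgeR adjusted p = 3.57e-09). The carnitine carrier Slc25a20 rose by 0.75 ± 0.09. On the oxidation list, which holds both genes, 6 of 28 rose (21.4%) and 3 fell (10.7%), with a median of 0.033. Among all genes tested 12.4% rose and 13.3% fell. The 3 falls became 0 without deletion library B and 1 without deletion C or control B. Txnip, which curbs glucose uptake, had 21.4, 31.6 and 16.4 CPM in deletion iNs and 1.5, 3.42 and 5.33 CPM in control iNs, 6.63-fold higher (2.73 ± 0.28). Its relative Arrdc4 had 41.5, 44.9 and 32.3 CPM in deletion iNs and 10.3, 14.8 and 17.3 CPM in control iNs (1.47 ± 0.15). The groups do not overlap for either gene, although both spread more within a group than Cpt1a did. Pdk2, which holds back pyruvate dehydrogenase, rose by 1.38 ± 0.24, and Hk2, an inducible hexokinase, fell by 2.39 ± 0.27 at 0.485 to 0.622 CPM in deletion iNs and 2.43 to 3.42 CPM in control iNs. On the glycolysis list 4 of 30 rose and 7 fell, or 11 without control library A.

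Insulin and FoxO pathway genes rose in 12 and fell in 6 of 22 (median 0.217). FoxO factors act when insulin signalling is low. The FoxO target Fbxo32 had 5.77, 6.25 and 4.62 CPM in deletion iNs and 2.60, 2.22 and 2.84 CPM in control iNs (1.13 ± 0.18), Foxo6 rose by 1.12 ± 0.26 and Igfbp5, which binds insulin-like growth factors, by 0.80 ± 0.09. The growth factor Igf1 fell by 1.76 ± 0.25 at 0.647 to 1.24 CPM in deletion iNs and 3.04 to 3.55 CPM in control iNs. Igfbp3 rose by 0.95 and Igfbp2 fell by 0.93. Calls for Igf2 (−1.07) and Foxo1 (0.62) were lost in 3 and 7 alternatives, and the 6 falls became 3 without deletion library A or B. Of 15 hypoxia genes 3 fell and 1 rose, with Vegfa, the vascular growth factor, at 14.7, 17.5 and 15.2 CPM in deletion iNs and 32, 31.9 and 33.2 CPM in control iNs (−1.03 ± 0.08). Targets of p53 fell in 9 and rose in 3 of 23 (5 falls without deletion library A or B). Ccng1 had 166, 173 and 161 CPM in deletion iNs and 326, 275 and 289 CPM in control iNs (−0.83 ± 0.06), Tnfrsf10b fell by 1.38 and Eda2r by 0.85, while Bbc3 (0.90), Btg2 (0.70) and Perp (0.59) rose. The p53 targets most used as readouts, Cdkn1a (−0.09) and Mdm2 (0.04), did not pass.

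Cytosolic ribosomal protein genes fell in 53 of 57 and none rose, by small amounts (median −0.363, range −0.589 to −0.111). Rpl32 had 120, 141 and 131 CPM in deletion iNs and 200, 214 and 170 CPM in control iNs (−0.57 ± 0.08), Rpl26 had 127, 139 and 133 CPM in deletion iNs and 191, 212 and 188 CPM in control iNs (−0.57 ± 0.06), and Rpl37 (−0.59), Rps27 (−0.53), Rps15 (−0.51), Rps14 (−0.50), Rps20 (−0.48) and Rpl35 (−0.48) fell alike. These transcripts are short, with a median of 733 bases, and have many pseudogene copies, so their counts are uncertain. Short transcripts fell as a class: the median log2 fold change was −0.28 for 357 genes of up to 500 bases, −0.076 for 1294 genes of 500 to 1000 bases and 0.049 for 816 genes above 6000 bases, whereas the same classes in ESCs had medians of 0.054, 0.016 and −0.022. Among 803 other genes whose log2 CPM averaged 5 or more, with a transcript shorter than that of the longest ribosomal protein gene (1619 bases), 29.5% fell and the median was −0.097. At the same abundance but nearer in length, 50.8% of 260 genes of 500 to 1000 bases fell (median −0.2). Of 50 such genes of up to 500 bases 42% fell (median −0.251). These 2 classes include ribosomal protein genes. The part of transcript length in the ribosomal protein values was not tested. Nuclear-encoded respiratory chain genes, also short (median 809.5 bases), fell in 12 and rose in 1 of 48 (median −0.133). The falls numbered 4 or 5 without deletion library A or C or control library B or with library totals. The rise was lost without any 1 library, with DESeq2's size factors or Wald test, and under the replicate block, among other alternatives. Cox7a2 (−0.36), Uqcrq (−0.35) and Cycs (−0.35) were the furthest down. Mitochondrially encoded protein genes fell in 6 of 13 (3 with DESeq2's Wald test), and mt-Nd1 had 1806, 2886 and 2455 CPM in deletion iNs and 4458, 3508 and 3659 CPM in control iNs (−0.70 ± 0.13), in libraries whose mitochondrial shares differ as given above.

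Neuronal genes moved mostly the other way. Of 36 genes of glutamatergic synapses 20 rose and 3 fell (1 fell without deletion library B; median 0.319), and of 59 sodium, potassium and calcium channels 27 rose and 6 fell (median 0.166). These transcripts are long, with medians of 3939.5 bases for the synapse list and 4464 bases for the channels, and among all genes tested 18.9% rose at 4000 to 6000 bases and 27.1% above 6000 bases. The part of length in these rises was not tested. The kainate receptor subunit Grik1 had 229, 213 and 237 CPM in deletion iNs and 104, 110 and 118 CPM in control iNs (1.03 ± 0.06, edgeR adjusted p = 2.48e-08), and Grik3 had 31.7, 33.3 and 32.8 CPM in deletion iNs and 14.3, 13.6 and 15.4 CPM in control iNs (1.18 ± 0.08). The NMDA receptor subunit Grin2b had 23.1, 26.7 and 25.6 CPM in deletion iNs and 11, 11.8 and 12.2 CPM in control iNs (1.10 ± 0.09), and the obligate subunit Grin1 had 100, 89.7 and 93.5 CPM in deletion iNs and 61.2, 66.9 and 64.4 CPM in control iNs (0.56 ± 0.06). None of these 4 receptor genes overlapped between the groups. The metabotropic receptors Grm8 (1.31) and Grm7 (0.91), the adhesion molecule Nlgn3 (0.84), the scaffold Shank1 (0.82) and Grin3a (0.72) rose, as did the vesicular transporters Slc17a7 (0.51) and Slc17a6 (0.41). The AMPA receptor subunit Gria2 did not pass, at 198, 204 and 210 CPM in deletion iNs and 186, 170 and 196 CPM in control iNs (0.15 ± 0.06, edgeR adjusted p = 0.0814).

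GABA-A receptors are the chloride channels that answer to GABA and are built from α, β and γ subunits, and genes of their subunits changed in opposite directions. Gabrb2, the β2 subunit, had 48.7, 38.2 and 44.9 CPM in deletion iNs and 122, 111 and 105 CPM in control iNs (−1.36 ± 0.08). Gabra3, α3, on the X chromosome, had 26.8, 27 and 26.9 CPM in deletion iNs and 9.91, 9.64 and 9.05 CPM in control iNs, 2.82-fold higher (1.5 ± 0.09). Neither gene's groups overlapped. Gabrg3 on chromosome 7 rose by 0.72 ± 0.08 and Gabra2 by 0.48 ± 0.07. Of 18 genes of GABA and glycine synapses tested, 4 rose and 6 fell (median 0.012).

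Levels compared between subunits need a scale per transcript length. On the TPM scale (RSEM's transcript abundance, scaled by length and depth) Gabra2 was at 18.1 ± 0.57 TPM, Gabra3 at 8.2 ± 0.59 TPM and Gabra5 at 6 ± 0.6 TPM in deletion iNs (mean ± SD, n = 3). In control iNs Gabra2 was at 11 ± 1.5 TPM, Gabra5 at 4.74 ± 0.54 TPM and Gabra3 at 2.53 ± 0.26 TPM (mean ± SD, n = 3). Gabra3 thus stood above Gabra5 in deletion iNs and below it in control iNs, while Gabra5 itself did not pass the test (0.13, edgeR adjusted p = 0.369). Gabrb2 was at 12.9 ± 2.3 TPM in deletion iNs and 29.1 ± 2.4 TPM in control iNs, and Gabrg3 at 5.55 ± 0.32 TPM in deletion iNs and 2.7 ± 0.4 TPM in control iNs (mean ± SD, n = 3 each).

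**Figure D4:**
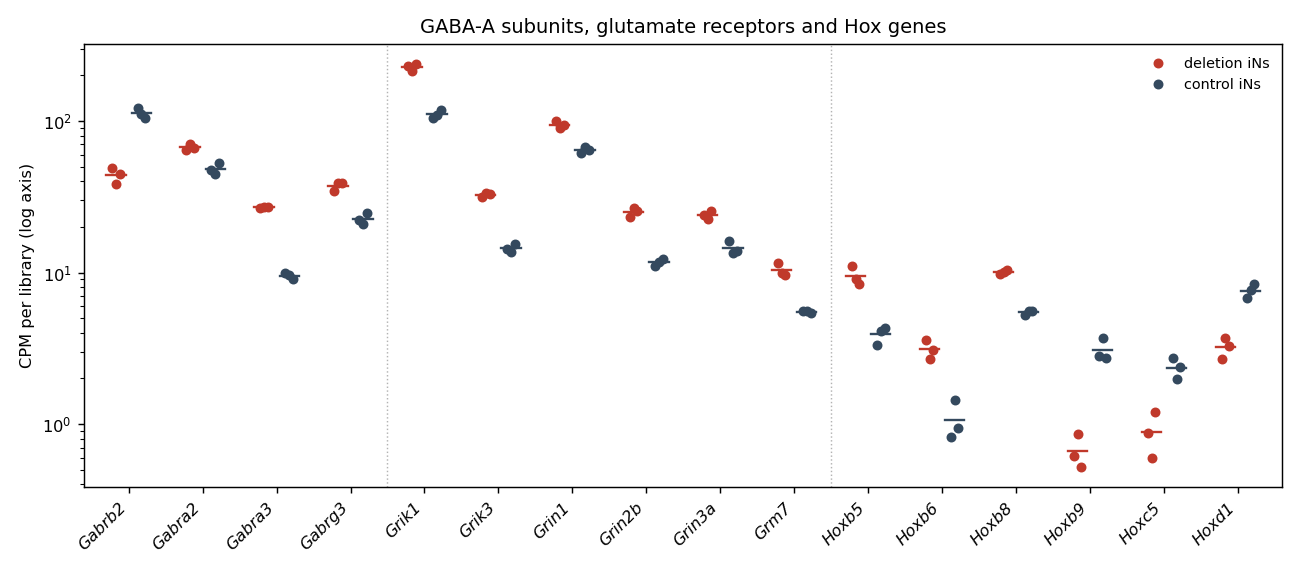
CPM per library on a log axis for GABA-A subunits, glutamate receptor subunits and Hox genes (separated by dotted lines), with 3 deletion iN libraries (red, left) and 3 control iN libraries (dark, right) per gene and a bar at each mean. Gabrb2 is lower and Gabra3 and Gabrg3 higher in deletion iNs, and Hoxb5, Hoxb6 and Hoxb8 are higher while Hoxb9 is lower.

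Several genes of neuronal signalling had larger changes than the lists they belong to. Nts, the precursor of neurotensin, had 182, 183 and 188 CPM in deletion iNs and 29.2, 30.8 and 45.7 CPM in control iNs, 5.23-fold higher (2.39 ± 0.12, edgeR adjusted p = 3.57e-09). Cck, another peptide precursor, rose by 2.4 ± 0.40 at 1.76 to 2.75 CPM in deletion iNs and 0.193 to 0.828 CPM in control iNs (3.28 without control library C). Ntrk3, the receptor for neurotrophin-3, had 204, 234 and 233 CPM in deletion iNs and 100, 82.7 and 89.1 CPM in control iNs (1.31 ± 0.07). The G protein subunit Gna14 (2.15 ± 0.12), the α1-adrenergic receptor Adra1a (1.86 ± 0.26), the δ-opioid receptor Oprd1 (1.77 ± 0.19), the potassium channel subunit Kcnmb2 (1.77 ± 0.23) and the calcium buffer Calb1 (1.34 ± 0.10) rose without overlap. The tachykinin receptor Tacr3 (−1.83 ± 0.16), the prostacyclin receptor Ptgir (−1.66 ± 0.13) and the adhesion protein Cntnap3 (−3.90 ± 0.25) fell. Cntnap3 had 0.670, 0.863 and 0.415 CPM in deletion iNs and 12.3, 9.44 and 7.69 CPM in control iNs, 15-fold lower. Among channels, the sensory-neuron sodium channels Scn10a (1.2) and Scn11a (1.45) and the potassium channels Kcna3 (1.72), Kcnn2 (1.31) and Kcnt1 (0.68) rose, the first 4 at under 5 CPM.

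General neuronal identity changed little. Pan-neuronal genes rose in 8 of 24 and none fell (median 0.135; 5 rose without deletion library C, while 1 fell without control A or B and 3 with DESeq2's Wald test), the furthest being Ncam1 at 995, 952 and 982 CPM in deletion iNs and 663, 753 and 733 CPM in control iNs (0.45 ± 0.06), followed by Syn2 (0.40), Syp (0.39) and Rbfox3 (0.37). Dcx, a marker of young neurons, had 1195, 1322 and 1283 CPM in deletion iNs and 1410, 1170 and 1171 CPM in control iNs and did not pass (0.02, edgeR adjusted p = 0.877). Neurog2 had 661, 596 and 596 CPM in deletion iNs and 220, 218 and 245 CPM in control iNs, 2.71-fold higher (1.44 ± 0.06, edgeR adjusted p = 1e-09). Its counts can include the transgene. Of 19 proneural factors 7 rose and 2 fell, among them Insm1 (0.84), Nhlh1 (0.83), St18 (0.76), Myt1l (0.33) and Ebf3 (0.27) up and Sox11 (−0.33) and Isl1 (−0.29) down. In ESCs, before induction, Neurog2 had a log2 fold change of 0.07 and did not pass. The Neurog2 level and the genotype cannot be told apart.

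Guidance and positional genes were mixed. Of 57 axon guidance genes, 21 rose and 7 fell (4 fell without control library C). The receptors Ephb1 (1.25), Epha5 (0.89) and Plxna2 (0.68) rose, and the cue Sema3a (−1.02) and the netrin receptor Unc5b (−0.90) fell. These transcripts are also long (median 4278 bases), and the part of length in the rises was not tested. Hox genes, which mark position along the body axis, rose in 7 and fell in 3 of 22 (median 0.391) at low levels. Hoxb8 had 9.84, 10.1 and 10.4 CPM in deletion iNs and 5.26, 5.54 and 5.56 CPM in control iNs (0.89 ± 0.12), Hoxb5 (1.26) and Hoxb6 (1.5) rose beside it, and Hoxb9 of the same cluster had 0.618, 0.863 and 0.519 CPM in deletion iNs and 2.80, 3.71 and 2.72 CPM in control iNs (−2.21 ± 0.27). Hoxc9 (0.88) rose while Hoxc5 (−1.39) and Hoxd1 (−1.24) fell. The hindbrain and midbrain factor Lmx1b rose by 2.27 ± 0.22 and Dlx2 (−1.17) and Dlx1 (−0.87) of forebrain interneurons fell; of 18 such regional factors 7 rose and 6 fell, counts that dropped to 3 or 4 and to 2 or 3 without deletion library B or C. Of 30 genes of cholinergic, monoaminergic and peripheral identity 11 rose and 5 fell (7 and 3 without deletion library A; 3 fell without deletion B or control B). The vesicular acetylcholine transporter Slc18a3 (0.70) and the choline transporter Slc5a7 (0.80) rose, and Phox2a (−0.75) fell.

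Other lists held single genes of note. Immediate early genes were split, with Jun at 122, 130 and 94.1 CPM in deletion iNs and 41.2, 47.3 and 54.7 CPM in control iNs (1.27 ± 0.11) and Egr1 at 1.34, 1.08 and 2.90 CPM in deletion iNs and 6.22, 6.50 and 5.74 CPM in control iNs (−1.79 ± 0.26). Of 20 such genes 4 rose and 6 fell. Among imprinted genes elsewhere in the genome 7 of 40 rose and 12 fell. H19, a maternally expressed noncoding RNA, had 11.2, 16.8 and 12.8 CPM in deletion iNs and 3.14, 4.43 and 3.19 CPM in control iNs (1.90 ± 0.17), paternally expressed Nnat fell (−1.51 ± 0.07), and Peg3 had 915, 910 and 939 CPM in deletion iNs and 548, 555 and 690 CPM in control iNs (0.62 ± 0.07). The Wnt ligand Wnt5a (−2.15 ± 0.15) and the Wnt inhibitor Dkk1 (−2.04 ± 0.21) fell. Of 25 lysosome and autophagy genes 3 rose and 4 fell, of 9 interferon genes 1 fell (2 without deletion library C) and of 16 Notch pathway genes 4 rose (2 without deletion or control library C) and 1, Dlk1, fell, with Notch1 at 1.29 ± 0.25.

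Whether the same changes appeared in the ESCs from which the neurons were made was asked with the interaction of genotype and cell type over all 12 RNA libraries. Of 18299 genes tested, the deletion's log2 fold change was higher in iNs than in ESCs for 917 (5.01%) and lower for 1556 (8.5%), at an adjusted p under 0.05 (edgeR quasi-likelihood test, Benjamini-Hochberg adjustment). Without deletion iN library B the lower effects numbered 907. With library totals in place of TMM, which moved the median by 0.057, there were 1181 higher and 1082 lower effects, so that higher effects made up 52.2% in place of 37.1%. In the ESC comparison 309 of 16185 genes passed (1.91%), 221 up and 88 down, and 128 genes passed in both cell types, which is 3.12% of the iN calls and 41.4% of the ESC calls, 60 of them in the same direction. ESC libraries A of both genotypes had shorter fragments (177.9 and 192.7 bases) than B and C (237.4 to 242.5 bases). The ESC comparison was run without a replicate block, and the part of this difference in the number of ESC calls was not tested.

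The metabolic falls of iNs differed from the same contrast in ESCs. For 18 of 29 ATF4 genes the interaction passed with a lower effect in iNs, and the median of the list in ESCs was −0.039. The same held for 16 of 20 cytosolic synthetases, 10 of 21 serine and folate enzymes, 19 of 21 sterol synthesis genes, 13 of 20 fatty acid synthesis genes and 40 of 57 ribosomal protein genes, with none higher. In ESCs 3 sterol synthesis genes rose and the list's median was 0.165. Phgdh averaged 78.1 CPM in deletion ESCs and 75.3 CPM in control ESCs, and its interaction term was −3.74 ± 0.16 (edgeR adjusted p = 4.23e-09). Cth averaged 57.3 CPM in deletion ESCs and 55.7 CPM in control ESCs (interaction −4.87 ± 0.37), and Slc7a3 201 CPM in deletion ESCs and 200 CPM in control ESCs (−3.60 ± 0.16), so these genes had more CPM in ESCs than in iNs of either genotype and did not pass the test in ESCs. Cpt1a had 18.9 CPM in deletion ESCs and 20.3 CPM in control ESCs (interaction 2.42 ± 0.14) and Txnip 22.0 CPM in deletion ESCs and 28.6 CPM in control ESCs (3.08 ± 0.34). Of the 36 genes with the largest changes in iNs that could also be tested in ESCs, leaving out Mirg, the interaction passed for 32; the exceptions were Pdk2, Ankrd26, Lars2 and mt-Rnr2. Lars2 had log2 fold changes of −2.70 in iNs and −2.52 in ESCs, and mt-Rnr2 of −3.16 in iNs and −1.64 in ESCs.

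**Figure D5:**
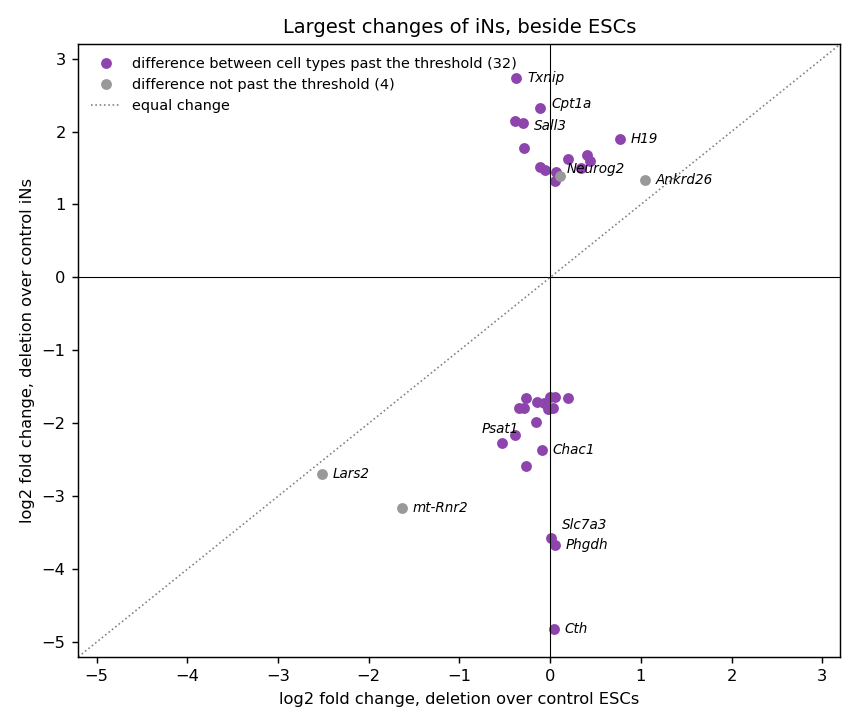
Log2 fold change of deletion over control in iNs (vertical axis) against the same in ESCs (horizontal axis) for the 36 genes with the largest changes in iNs that were tested in both, with the line of equal change dotted. The interaction passed for 32 (purple) and not for 4 (grey); most genes lie near 0 on the ESC axis.

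Predicted targets of the deleted microRNAs were then read in the same comparison. The authors' deposited list matched 997 sites in 874 Ago2 regions to cluster microRNAs, in 636 genes, of which 615 were tested. The regions came from day 10 Mirg(fl/+) iNs that expressed added HA-tagged Ago2. Of the 615 genes 88 rose (14.3%) and 139 fell (22.6%), with a median of −0.045. In 153 of them a matched region had a −log10 p above 3 and a positive log2 fold over the untagged pulldown. The list thus includes many regions that fall short of this. Of these 153 genes 24 rose (15.7%) and 40 fell (26.1%), with a median of −0.053. The 4558 genes with other Ago2 regions only rose in 12.7% and fell in 18.0% (median −0.023). These sets were built differently. Matched genes are those named in the deposited list, whereas other regions were assigned by position, on either strand, to a single tested gene that spans them. Other regions in no tested gene (1119) or in several (672) were left out. Genes with Ago2 regions are abundant, and where log2 CPM averaged 5 or more the shares were 13.8% up and 23.7% down for 486 genes with matched regions, 12.6% and 21.3% for 2804 genes with other regions only, and 14.4% and 21.2% for all 5893 genes tested, so the share that rose was near the background. Genes with 3 or more matched regions rose in 10 and fell in 14 of 46. By microRNA, the genes matched to miR-495-3p rose in 6 and fell in 25 of 78, those of miR-666-3p in 12 and 14 of 59, those of miR-381-3p with miR-539-3p in 7 and 14 of 53, those of miR-543-3p in 6 and 14 of 42, those of miR-379-5p with miR-1193-5p in 1 and 11 of 28, those of miR-376b-3p in 0 and 9 of 23, and those of miR-134-5p in 8 and 3 of 21. miR-134-5p and miR-1197-3p (9 and 4 of 27) were among the matched microRNAs whose genes rose more often than they fell.

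The called genes with the most matched regions went both ways. Trim71, a stem cell ubiquitin ligase with 8 regions, had 68.7, 62.1 and 70.3 CPM in deletion iNs and 104, 99.9 and 93.4 CPM in control iNs (−0.56 ± 0.06). Tnrc6a, the Argonaute partner that brings in the deadenylases, also had 8 regions and 140, 138 and 145 CPM in deletion iNs against 117, 116 and 136 CPM in control iNs (0.20 ± 0.06, edgeR adjusted p = 0.0316), a call that was lost in 5 alternatives. The noncoding RNA Snhg11, with 7 regions, had 748, 861 and 828 CPM in deletion iNs and 457, 409 and 566 CPM in control iNs (0.77 ± 0.09). Crebrf, a regulator of the unfolded protein response with 6, rose by 0.83 ± 0.08, and Lrrc58 with 6 fell by 0.29 ± 0.05. Ankrd52, tied with them at 6 regions, rose by 0.21 ± 0.06. In the microRNA pathway itself Ago2 had 499, 496 and 510 CPM in deletion iNs and 509, 488 and 495 CPM in control iNs (0.01), Dicer1 (−0.04) and Drosha (−0.04) did not pass, Ago4 (0.57) and Tnrc6b (0.48) rose, and the let-7 blockers Lin28a (−0.88) and Lin28b (−0.43) fell.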

How the data were processed

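RNA was read as rRNA-depleted paired-end libraries of 3 deletion and 3 control iNs, with 6 ESC libraries for the interaction. Tools listed in the submitters' processing notes are RSEM 1.2.30, STAR 2.4.1d and cutadapt 1.4.2, with SAMtools, DESeq2 and the build mm10; the annotation release and the strand setting are not given in the sources used here. The authors deposited expected counts per gene from RSEM, which were rounded to whole numbers, and TPM, used only to compare subunits. The authors' deposited comparison gives log2 fold changes with p-values, and their deposited Ago2 list gives signal, log2 fold and −log10 p per region, with replicates not kept apart. Genes were filtered with filterByExpr (minimum count 10), scaled by TMM and fitted in edgeR 4.0.16 under R 4.3.3 (quasi-likelihood test, Benjamini-Hochberg, threshold 0.05), checked on simulated data. The simulated counts used the fit's own dispersions and few changed genes, in equal numbers up and down. That check therefore could not test the scaling or the part of transcript length. DESeq2 1.42.0 gave an alternative. SE is the absolute log2 fold change over the root of F. Depth is in the results. The members and gene lists were chosen with earlier results of these data known. Named were the domain's genes, the 25 largest rises and 25 largest falls among called genes that averaged a log2 CPM of 2 or more without overlap between groups, the 10 smallest p-values, up to 8 called and 3 defining uncalled genes per list, the 5 largest interaction terms each way and the 5 called genes with most matched Ago2 regions; not all are printed. Gm9661, Gm10243, Gm10335 and Ankrd52 were chosen after their values were seen. Replicate letters did not pair the iN libraries in expression, and only iN libraries were checked for this. Fragment lengths by letter are given at the end. The alternatives and their effects are given at the end. Some genes of these lists are not reported here.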

Additional observations from a re-analysis of the deposited data

Results flagged for a closer look

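Among the genes with the largest changes in iNs, 10 were marked because the deletion's effect differed between iNs and ESCs in the interaction test over 12 libraries. Each value is the log2 fold change in iNs minus that in ESCs. The effect was higher in iNs for the adrenergic receptor Adra1a (3.44), for Txnip, which curbs glucose uptake (3.09), for the G protein subunit Gna14 (2.52), for Cpt1a, the gate to fatty acid oxidation (2.41), and for the zinc finger factor Sall3 (2.4). It was lower in iNs for the cysteine enzyme Cth (−4.87), the adhesion protein Cntnap3 (−3.85), the serine enzyme Phgdh (−3.74), the arginine carrier Slc7a3 (−3.6) and the Wnt inhibitor Dkk1 (−2.76). None of the 10 lost its call in any alternative run.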

How the results depend on the processing

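The 1981 rises and 2128 falls of iNs became 1976 and 2141 with DESeq2's size factors, 1483 and 1817 with its Wald test, 2144 and 2403 without the filter, and 1393 to 1752 and 1551 to 1994 when 1 library was left out. The higher interaction effects ran from 647 to 860 and the lower ones from 907 to 1566 with 1 library left out, the 907 being without deletion iN library B. With the replicate block the counts were 1780 and 1887 in iNs and 775 and 1345 in the interaction. Among iN libraries same-letter deviations of expression correlated at −0.0491, 0.0176 and 0.0358. Mean fragment length in libraries A, B and C was 214.4, 194 and 198 bases in deletion iNs. It was 236.2, 191.3 and 210.1 bases in control iNs, so A was longest and B shortest in both genotypes. In ESCs the mean fragment length was 177.9 bases in deletion A and 192.7 in control A. It was 237.4 to 242.5 bases in ESC libraries B and C of both genotypes. The ESC comparison was not run with the replicate block. Of 308 named genes called, 253 kept their call in every alternative, 55 lost it in at least 1, 14 of them under the replicate block, and none reversed. With 3 libraries a group, depth limits genes under about 1 CPM most. Counts of short, repeated or pseudogene-like entries are uncertain. All replicate spread may be technical.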
